A study of Mus musculus with 2 samples.

Results

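Open chromatin of mouse blood neutrophils was examined at CpG-rich promoters that serve a single protein-coding gene. Overlapping peaks of the list that the authors made from both libraries together (its conservative form, cut at an irreproducible discovery rate or IDR) were merged into 24882 regions. Each region took the summit of its peak with the highest signal value. A region was counted as a CpG-rich single-gene promoter region when that summit lay within 1 kb of a start site of exactly 1 protein-coding gene. The 500 bp on either side of the nearest such start site also had to reach 50% GC and a CpG ratio, observed over expected, of 0.6. There were 6337 such regions, which are called members below, and they lay at 5758 genes. The other regions were 2940 CpG-poor single-gene promoter regions, 1378 regions near start sites of more than 1 protein-coding gene (bidirectional below), 989 near noncoding start sites only, and 13238 distal regions.

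The 2 libraries, replicates 1 and 2, form 1 group: neutrophils of the peripheral blood of C57BL/6J mice aged 5 to 6 weeks, 50000 cells per library, with no treatment and no second cell type or genotype. ATAC-seq inserts sequencing adapters into accessible DNA with a transposase, so a peak marks DNA that was open. The labels name no sorting step and do not say whether the libraries came from separate mice, so the spread between them may be technical. Peak lists hold no read counts, and depth is therefore unknown. The list of replicate 2 is the shorter, with 18367 peaks against 34409 in that of replicate 1. Among 12 neutrophil markers, 7 had a promoter region in the pooled list and none of these was a member, since none of the 12 has a CpG-rich single-gene promoter. Ly6g, Mmp9, Ltf, Camp and Cebpe had none there. All 5 B cell markers had a promoter region, as did 2 of 5 T cell, 1 of 3 NK cell, 1 of 4 monocyte, 1 of 3 erythroid and 1 of 3 platelet markers, and 0 of 4 eosinophil and basophil markers. No share over all protein-coding genes stands beside these marker counts, so they are not read as high or low. The part that other blood cells have in the results below was not tested.

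Most vertebrate DNA has lost CpG dinucleotides, because methylated cytosine mutates readily, but stretches called CpG islands kept them and are usually unmethylated. Promoters in such islands tend to start transcription at many nearby positions and lack a TATA box. They serve most housekeeping genes, which every cell uses, and also many regulators of development that are kept silent in most tissues by Polycomb proteins. In neutrophils, short-lived phagocytes with condensed, lobed nuclei, many effector genes for granule proteins and surface receptors have CpG-poor promoters instead.

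Sequences around the summits of selected members show the kinds of site met at these promoters. Of 20 fixed strings searched on both strands, 6 differed most in frequency between members and CpG-poor single-gene promoter regions, as described below. For each of these 6 the member with the highest mean replicate signal value that holds the string within 50 bp of its summit, and overlaps no annotated exon there, is shown. For the CCAAT-box, CREB, NRF1 and BANP strings a member is shown by the same criteria, chosen after the values were seen. Windows may also hold other strings, which are left in lower case. All are GRCm38 (mm10) sequence on the strand of the gene, 5′ to 3′, with the string or its reverse complement in capitals. The first holds GGGGCGGG, a GC box bound by SP and KLF factors, upstream of Mpzl1, which encodes a cell surface receptor of the immunoglobulin superfamily (chr1:165634560-165634660, minus strand).
Mpzl1: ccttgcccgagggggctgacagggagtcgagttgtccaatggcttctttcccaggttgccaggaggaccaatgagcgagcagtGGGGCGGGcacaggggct
The next pair hold the ETS-type strings CCGGAAGT, at Tpx2, a spindle assembly factor (chr2:152847846-152847946, plus strand), and GAGGAAGT, the form preferred by the myeloid factor PU.1, at Gcc2, a protein of the Golgi (chr10:58255377-58255477, plus strand).
Tpx2: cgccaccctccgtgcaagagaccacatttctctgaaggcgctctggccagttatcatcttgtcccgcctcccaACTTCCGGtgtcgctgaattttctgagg
Gcc2: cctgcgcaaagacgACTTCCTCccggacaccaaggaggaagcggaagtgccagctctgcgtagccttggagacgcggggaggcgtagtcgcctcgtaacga
The next 3 strings were rarer in members than in CpG-poor regions: the AP-1 string TGANTCA at Nucks1, a nuclear DNA-binding phosphoprotein (chr1:131910344-131910444, plus strand), the RUNX string TGTGGTT at Stat2, a transcription factor of the type I interferon response (chr10:128270400-128270500, plus strand), and the IRF string GAAANNGAA at Trp53bp1, a DNA repair factor (chr2:121271420-121271520, minus strand).
Nucks1: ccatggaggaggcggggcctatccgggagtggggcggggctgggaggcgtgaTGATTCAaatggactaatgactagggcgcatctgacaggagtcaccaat
Stat2: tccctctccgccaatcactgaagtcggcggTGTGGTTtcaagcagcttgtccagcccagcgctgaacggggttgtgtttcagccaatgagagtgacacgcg
Trp53bp1: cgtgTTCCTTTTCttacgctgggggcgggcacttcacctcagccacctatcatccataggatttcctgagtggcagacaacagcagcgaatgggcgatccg
The last 4 hold the CCAAT box CCAATCA, bound by NF-Y, at the kinetochore gene Spc25 (chr2:69206211-69206311, minus strand), TGACGTCA, bound by CREB and ATF factors, at Ift57, which encodes a protein of intraflagellar transport (chr16:49699098-49699198, plus strand), CGCATGCG, bound by NRF1, at Fam122b (chrX:53269830-53269930, minus strand), and CTCGCGAG, bound by BANP, at Tab3, an adaptor in NF-kappaB signalling (chrX:85573784-85573884, plus strand).
Spc25: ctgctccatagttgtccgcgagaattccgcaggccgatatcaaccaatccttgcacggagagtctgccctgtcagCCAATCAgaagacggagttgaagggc
Ift57: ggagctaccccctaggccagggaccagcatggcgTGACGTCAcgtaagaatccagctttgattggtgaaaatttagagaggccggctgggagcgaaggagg
Fam122b: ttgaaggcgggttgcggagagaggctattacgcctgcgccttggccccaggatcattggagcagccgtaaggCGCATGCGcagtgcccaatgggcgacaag
Tab3: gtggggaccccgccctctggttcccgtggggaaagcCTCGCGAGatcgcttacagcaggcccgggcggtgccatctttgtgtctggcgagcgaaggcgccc

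Members were wider and had higher signal values than CpG-poor single-gene promoter regions. Each peak carries a signal value, a score set by the authors without a definition in the sources used, and values are compared within 1 list at a time. In the pooled list members had a median of 13.3 (quartiles 9.65 and 16.9, range 1.75 to 28.8), against 10.8 in CpG-poor, 14.1 in bidirectional and 11.1 in all regions. Their median width was 590 bp (quartiles 442 and 755), against 445 bp in CpG-poor, 633.5 bp in bidirectional and 424 bp in all regions. Together they covered 3.90 Mb of the 11.9 Mb in all regions. Where the replicate lists held them, the median was 12.1 in replicate 1 (quartiles 9.11 and 15.3, n = 6077) and 13.7 in replicate 2 (10.9 and 16.8, n = 5275), against 10.5 and 11.6 in CpG-poor regions of the same lists.

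Members were found in the shorter list of replicate 2 more often than CpG-poor regions were. IDR peaks of replicate 1 overlapped 6077 members, or 95.9% (95% Wilson interval 95.4 to 96.4), against 92.1% of CpG-poor regions and 91.9% of all 24882 regions. Those of replicate 2 overlapped 5275 members, or 83.2% (82.3 to 84.1), against 59.7% of CpG-poor regions and 57.2% of all regions. Both replicates held 5213 members, or 82.3% (81.3 to 83.2), against 58.9% of CpG-poor and 56.5% of all regions. That share exceeded the CpG-poor one by 23.3 percentage points (95% Newcombe interval 21.3 to 25.3) and was 4.38 points below the 86.6% of bidirectional regions (difference -4.38, interval -6.33 to -2.27). Replicate 1 alone held 864 members, replicate 2 alone 62, and neither list 198. The less strict replicate lists overlapped 99.8% and 98.7% of members in replicates 1 and 2. All intervals cover counting error only, and the pooled list was made from the same 2 libraries, so this support is not independent of how members were chosen.

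Members that were weak in the pooled list were held by both replicates less often. When members were split into 4 equal groups by pooled signal value, IDR peaks of both replicates overlapped 43.1% of the lowest group (interval 40.7 to 45.5), and the shares in the next groups were 88.4%, 98.0% and 99.6%. In that lowest group replicate 1 held 84.8% and replicate 2 held 46.4%. Across the 5213 members in both lists the replicate values were correlated (Spearman rho 0.836, Pearson r 0.840); these regions share 2 libraries and are not independent replicates.

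**Figure D1:**
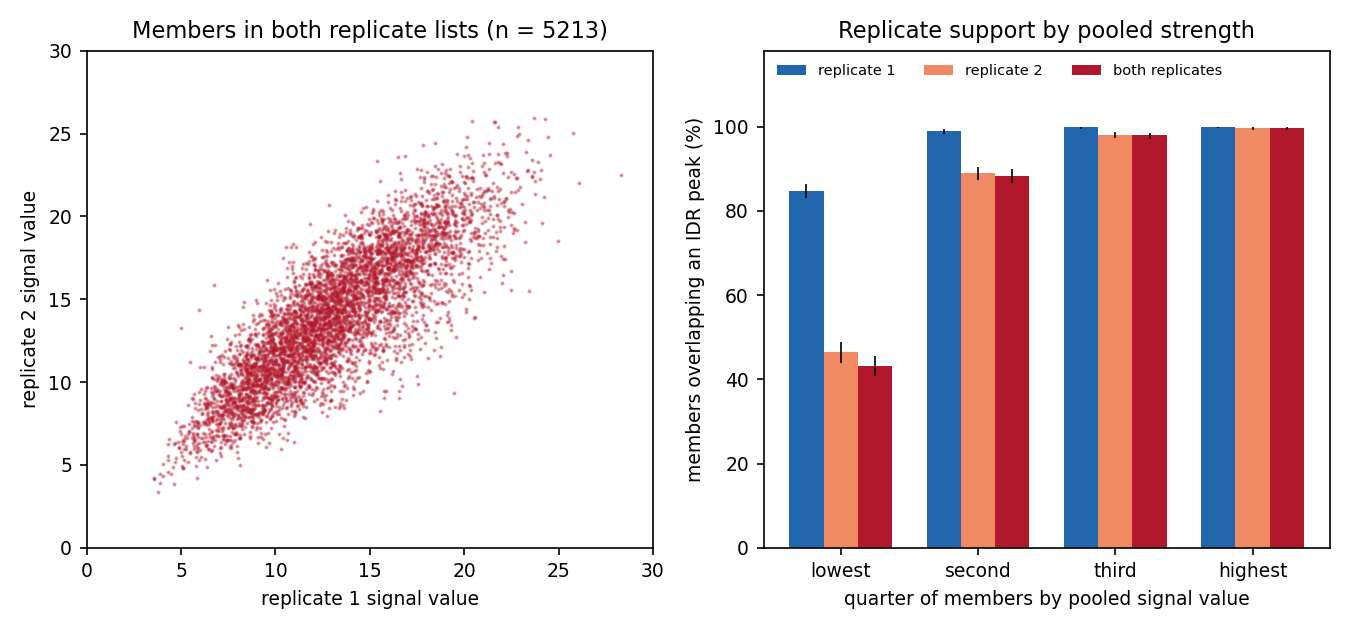
Signal values of members in replicate 1 (x axis) and replicate 2 (y axis), 1 point per member in both lists, and the percentage of members overlapping an IDR peak of each replicate and of both, in 4 equal groups by pooled signal value with 95% Wilson intervals. The point cloud runs along one diagonal (Spearman rho 0.836), and the share in both lists is 43.1% in the lowest group and 99.6% in the highest.

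The 10 strongest members served genes of varied function. Nuf2, a subunit of the kinetochore complex Ndc80, had signal values of 28.3 in replicate 1, 22.5 in replicate 2 and 28.8 in the pooled list, with its summit 71 bp upstream of the start site (chr1:169531324-169531898). Pigu, a subunit of the enzyme that attaches GPI anchors to proteins, had 25.8 in replicate 1, 25.04 in replicate 2 and 28.0 in the pooled list. Pnpt1, an RNA-degrading enzyme of mitochondria, had 26.1 in replicate 1, 22.0 in replicate 2 and 28.6 in the pooled list. By the mean of the replicate values the order was Nuf2 (25.4), Pigu (25.4), the DNA damage tolerance gene Hltf (25.1), the ribosome quality control ligase Ltn1 (24.8), Gcc2 (24.6), Tpx2 (24.1), Snapc3 (24.1), Pnpt1 (24.0), Mpzl1 (24.0) and Snapc1 (24.0). Snapc1 and Snapc3 are subunits of the complex that activates small nuclear RNA genes. All 10 summits lay between 72 bp upstream and 2 bp downstream of the start site. Hltf, Gcc2, Tpx2 and Mpzl1 held 1 of the 20 strings within 50 bp of the summit, and the other 6 genes held none.

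The 3 weakest members each lay downstream of the start site and were held by 1 replicate list. Zkscan14, a zinc finger gene, had a pooled value of 1.75 with 7.12 in replicate 2 and no IDR peak in replicate 1. Iqcc had 1.83 in the pooled list with 13.3 in replicate 1 and none in replicate 2. Atad2b, which encodes a bromodomain ATPase, had 1.86 in the pooled list with 10.6 in replicate 2 and none in replicate 1, but that gene has 3 member regions and the strongest of them reached 13.4. The value in a replicate list is that of the strongest overlapping region there, which can be wider than the member.

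Summits of members lay just upstream of the start site. The median position was 42 bp upstream (quartiles 97 and 4 bp upstream, written as -97 and -4), against 31 bp upstream in CpG-poor single-gene regions. The summit was upstream in 77.7% of members (interval 76.6 to 78.7), against 67.1% of CpG-poor regions, a difference of 10.6 points (8.59 to 12.6). It fell in the first 100 bp upstream in 53.9% of members against 44.5%, a difference of 9.45 points (7.27 to 11.6). A member interval covered the start site itself in 89.3% of cases against 72.2%, and where it did, it reached a median of 308 bp upstream and 263 bp downstream, against 225 and 230 bp in CpG-poor regions. By GENCODE annotation 51.1% of member summits lay outside genes, 31.7% in exons and 17.2% in introns, against 31.4%, 31.5% and 37.0% of CpG-poor summits.

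**Figure D2:**
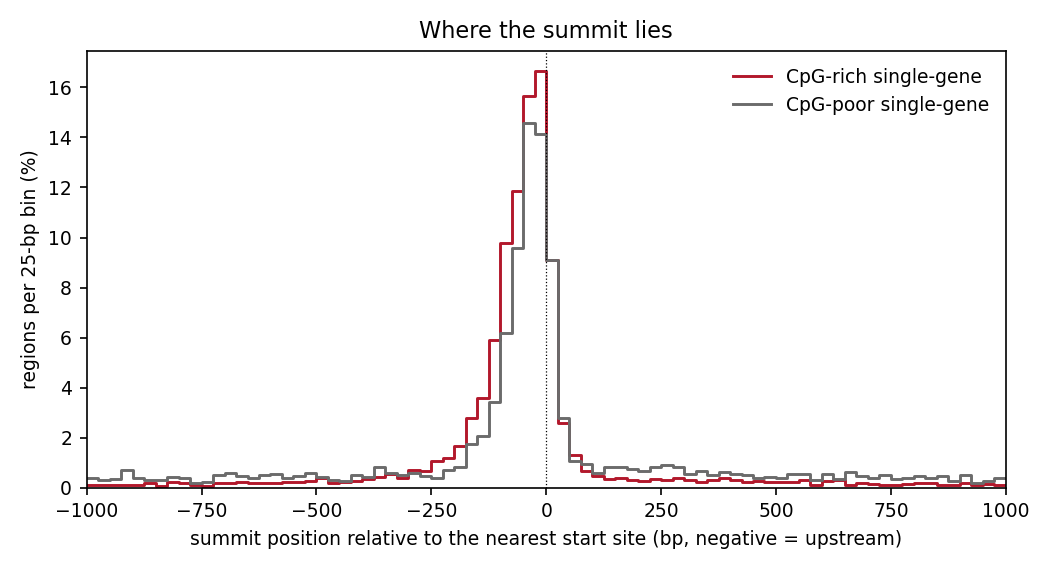
Percentage of regions whose summit falls in each 25-bp bin of the 1 kb on either side of the nearest start site (x axis in bp, negative upstream), for CpG-rich single-gene (red) and CpG-poor single-gene (grey) promoter regions. Both curves peak just upstream of the start site, and the grey curve stays higher than the red one beyond 300 bp on both sides.

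Members far from the start site were weaker and less often shared by the replicates. Among the 3416 members with a summit in the first 100 bp upstream, the median pooled value was 14.2 and both replicates held 86.8%. The 364 members with a summit more than 300 bp downstream had a median of 7.85, and both replicates held 46.2% of them (interval 41.1 to 51.3). The 391 members more than 300 bp upstream had a median of 9.60 and 65.7% in both (60.9 to 70.3). The farthest upstream were Wrnip1, a DNA damage response ATPase, at position -1000 (8.82 in replicate 1, 7.61 in replicate 2) and Impact, a regulator of translation, at position -992 (6.65 in replicate 1, 8.52 in replicate 2). Pabpc1, the cytoplasmic poly(A)-binding protein, at 997 bp (6.80 in replicate 1) and the lipid phosphatase gene Plpp3 at 995 bp (9.56 in replicate 1) were the farthest downstream, and the IDR list of replicate 2 held neither.

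Many members held more than 1 summit, and some genes more than 1 member. Of the 6337 members 44.4% merged peaks with different summits, against 27.9% of CpG-poor regions, a difference of 16.5 points (14.5 to 18.5). In the 2069 members with exactly 2 summits these lay a median of 311 bp apart (quartiles 266 and 378), against 283 bp in CpG-poor regions, and the weaker summit was downstream of the stronger in 62.1% (interval 59.996 to 64.2), against 63.2% in CpG-poor regions. There were 500 genes with 2 members, 38 with 3 and 1 with 4; the last was Cic, a repressor in growth factor signalling. In 456 of the 500 genes the 2 summits lay under 2 kb apart, with a median of 732 bp over all 500. A noncoding start site on the opposite strand lay within 1 kb of the summit at 16.8% of members against 7.07% of CpG-poor regions, a difference of 9.68 points (8.35 to 11.0). With such a site the median pooled value was 13.2 and without it 13.4.

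Among genes with a CpG-rich single-gene promoter, the share with a member was lower at high GC content and higher at a high CpG ratio. There were 8975 protein-coding genes with a start site that passes the CpG limits and has no start site of another protein-coding gene within 1 kb, and 5745 of them had a member, or 64.0% (interval 63.0 to 64.998). The other 13 of the 5758 genes with a member have a start site of another protein-coding gene within 1 kb of each of their CpG-rich start sites. By the observed-to-expected CpG ratio of the 5'-most such site the share with a member was 51.7% between 0.6 and 0.7, 65.5% between 0.7 and 0.8, 70.6% between 0.8 and 0.9 73.2% between 0.9 and 1 and 69.4% between 1 and 1.1. By GC content it ran the other way, with 72.4% at 50 to 55% GC, 72.8% at 55 to 60%, 62.2% at 60 to 65%, 55.9% at 65 to 70% and 51.1% at 70% and above. Within the CpG ratio of 0.7 to 0.8 the share was 79.2% (interval 74.8 to 83.1) at 50 to 55% GC and 38.8% (30.4 to 47.9) at 70% and above. Genes with a member had a median ratio of 0.790 and a median GC content of 60.6%, against 0.741 and 63.1% for genes without one.

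Signal values followed GC content more than the CpG ratio. The median pooled value of members was 15.9 at 50 to 55% GC, 14.6, 13.1 and 12.01 in the next 3 bins and 10.3 at 70% and above. Across members the Spearman rho of GC content with signal was -0.291 in the pooled list, -0.307 in replicate 1 and -0.186 in replicate 2, and that of the CpG ratio was -0.068, -0.081 and -0.032. These are descriptions across regions of the same 2 libraries. At the CpG limit itself the 561 members with a ratio of 0.6 to 0.65 had a median pooled value of 13.4 and 76.8% in both replicate lists, and the 423 CpG-poor regions with a ratio of 0.55 to 0.6 and enough GC had 12.6 and 77.8%.

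**Figure D3:**
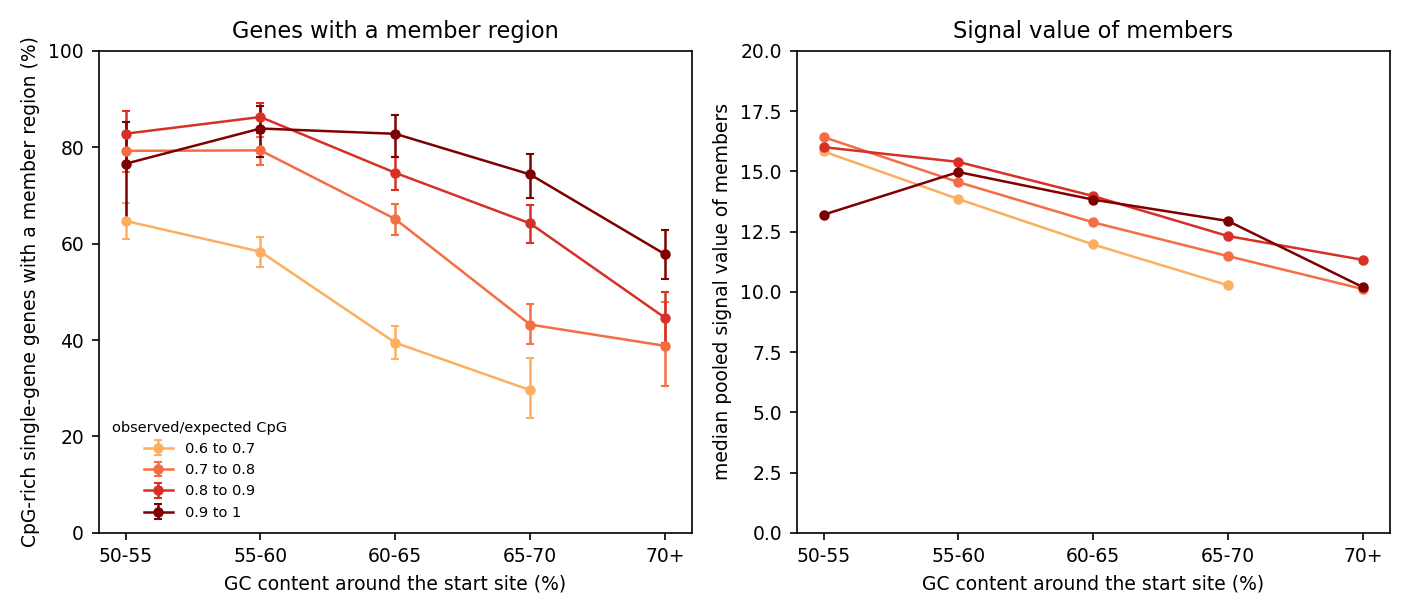
Percentage of CpG-rich single-gene genes with a member region, with 95% Wilson intervals (left), and median pooled signal value of members (right), by GC content of the 500 bp on either side of the start site and by observed-to-expected CpG ratio (colours). Within the ratio of 0.7 to 0.8 the share is 79.2% at the lowest and 38.8% at the highest GC content, and the median value lies between 10.1 and 16.4.

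Compared with CpG-poor single-gene regions, member summits held GC box, ETS, CCAAT, CREB, NRF1 and BANP strings more often and PU.1, AP-1, RUNX and IRF strings less often. A match is a description of letters, not of binding, and the CpG limits of the rule themselves favour strings that contain CG. The GC limit likewise disfavours strings with few G and C, such as GAAANNGAA, TGANTCA and TGTGGTT. Median GC content around the start site was 61.3% in members and 52.4% in CpG-poor regions. The part of base composition in the differences here and in the next paragraph was not tested. The GC box string GGGGCGGG lay within 50 bp of 18.01% of member summits (interval 17.1 to 19.0), against 8.81% of CpG-poor and 7.35% of all regions, a difference from CpG-poor of 9.20 points (7.77 to 10.6). CCGGAAGT was at 6.53% of members, 2.99% of CpG-poor and 2.87% of all regions, a difference of 3.54 points (2.64 to 4.38). The CCAAT string CCAATCA, which holds no CG, was at 7.95%, 5.99% and 4.42%, a difference of 1.97 points (0.849 to 3.03); from the list of replicate 2 alone that difference was 0.867 points, and its interval excluded 0 in 3 of the 4 alternatives run. TGACGTCA was at 2.73%, 1.39% and 1.35%, CGCATGCG at 1.72%, 0.748% and 0.756%, and CTCGCGAG at 1.404%, 0.102% and 0.462%. The E-box TCACGTG was at 2.92%, 2.11% and 1.99%. Bidirectional regions, the class most like members, held CCAATCA more often, with 7.95% of members against 11.5% (difference -3.51, interval -5.41 to -1.79), and GGGGCGGG less often, with 18.01% of members against 14.4% (3.56, 1.401 to 5.57). For CCGGAAGT (6.53% of members against 7.55%), TGACGTCA (2.73% against 3.05%), CGCATGCG (1.72% against 2.10%) and CTCGCGAG (1.404% against 1.38%) the interval of that difference held 0. The strings CCGGAAGT and GAGGAAGT both belong to the ETS family but cannot share 1 GGAAGT core.

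In the other direction the PU.1 string GAGGAAGT was at 1.499% of members, 5.82% of CpG-poor and 6.15% of all regions, a difference from CpG-poor of -4.32 points (-5.26 to -3.46). The AP-1 string TGANTCA was at 1.42%, 4.39% and 4.74% (difference -2.97, interval -3.81 to -2.21), TGTGGTT for RUNX at 1.09%, 3.33% and 3.96% (-2.24, -2.99 to -1.59), and GAAANNGAA for IRF at 1.499%, 3.54% and 2.998% (-2.04, -2.82 to -1.35). Low shares of these strings were not particular to members. Bidirectional regions held them at 1.38%, 1.23%, 0.508% and 2.03%, in the same order. For each, the interval of the difference between members and bidirectional regions held 0. For the other strings, AAGATGGCG of YY1, ACTACAATT of ZNF143, GTTGCCATG of RFX, AGGGGGCGC of CTCF, TATAAA, TTGCGCAA of C/EBP and TTCCNGGAA of STAT, the interval of the difference held 0. For the E2F strings TTTCCCGC and TTTGGCGC the differences were 0.380 points (0.0910 to 0.626) and 0.232 points (0.0223 to 0.407). They rest on few matches, with TTTCCCGC at 37 members and 6 CpG-poor regions and TTTGGCGC at 19 and 2. Of the 4 alternatives run, the interval excluded 0 in 3 for TTTCCCGC and in 2 for TTTGGCGC. All regions held these 9 strings at 0.667%, 0.201%, 0.374%, 1.68%, 1.81%, 0.129%, 0.317%, 0.253% and 0.197%, in the same order. Windows of the same size 1 kb up- or downstream of member summits that overlap no pooled peak (n = 11997) were also searched. There GGGGCGGG was at 1.05%, CCGGAAGT at 0.108%, CCAATCA at 0.825%, and GAGGAAGT at 0.592%, so PU.1 strings too were more frequent at member summits than beside them. The AP-1, RUNX and IRF strings were rarer at member summits, with 1.42%, 1.09% and 1.499% against 2.66%, 2.36% and 3.28% in these windows. So was TATAAA, with 1.07% against 6.64%.

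Members with a CCAAT or ETS string had higher signal values in both libraries. The 504 members with CCAATCA had a median of 14.6 in replicate 1, against 11.9 in members without it, and 15.7 in replicate 2, against 13.6, and both replicate lists held 93.5% of them, against 81.3%. The 414 members with CCGGAAGT had 13.9 against 12.03 in replicate 1 and 14.4 against 13.7 in replicate 2, and 91.1% against 81.6% were in both lists. The 1141 members with GGGGCGGG had lower medians than the members without it, 11.6 against 12.3 in replicate 1 and 13.5 against 13.8 in replicate 2, but 86.2% against 81.4% were in both lists. Medians were also higher in replicates 1 and 2 with TGACGTCA (13.1 and 14.2), CTCGCGAG (13.0 and 14.0), ACTACAATT (14.4 and 15.9, 20 members) and TTTCCCGC (13.1 and 14.3, 37 members). Members without each of these had 12.1 and 13.7. With CGCATGCG, AAGATGGCG, TCACGTG or GTTGCCATG the medians were lower in both replicates. Signal values were also lower at high GC content and far from the start site, as given above. The part of GC content and summit position in the differences by string was not tested. Of all members 62.1% held none of the 12 promoter strings (GC box, ETS, NRF1, CCAAT, YY1, CREB, BANP, ZNF143, E-box, RFX and the 2 E2F strings), 32.1% held 1, 5.44% held 2, and 24 members held 3.

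Strings took characteristic places around the 5758 start sites of members. For each gene the start site nearest to the summit of its strongest member was taken. CCAATCA had its median 66 bp upstream, GGGGCGGG 48 bp upstream and TGACGTCA 41 bp upstream (medians -66, -48 and -41). CCGGAAGT centred on the start site, with a median of 13 bp upstream (-13) and 2.28 and 2.29 matches per 100 start sites in the 20 bp before and after it. AAGATGGCG was the exception: 77.4% of its 372 matches lay downstream, with a median of 28 bp, and 80.4% (interval 76.0 to 84.1) were on the strand of the gene. For CCGGAAGT 57.0% of matches were on the gene's strand (53.5 to 60.4) and for CCAATCA 50.3% (47.0 to 53.5). TATAAA was rare close to the start site except between 40 and 20 bp upstream. There were 0.920 matches per 100 start sites there, against 0.174 and 0.191 in the bins on either side. Bins farther upstream again held up to 0.851 per 100, and the median position of all 511 matches was -182.

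**Figure D4:**
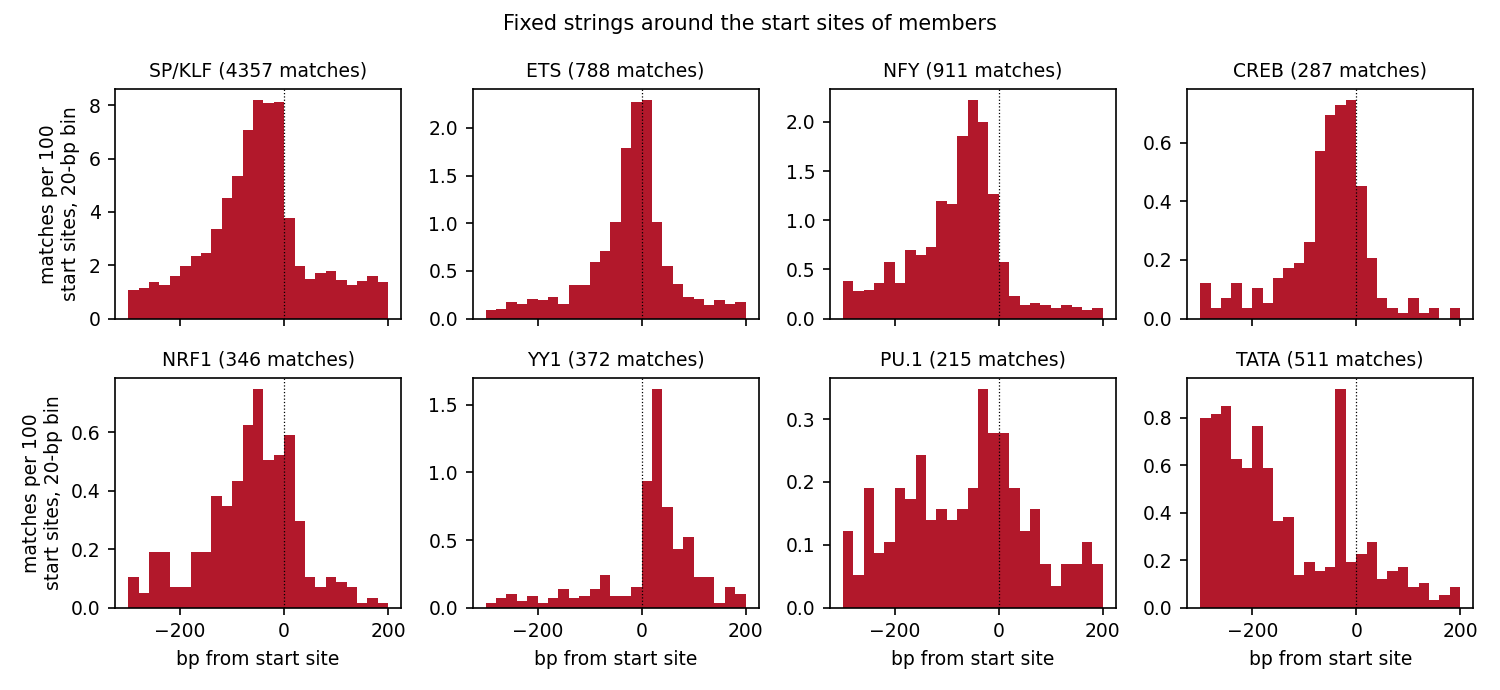
Matches of 8 fixed strings on either strand per 100 start sites of members, in 20-bp bins from 300 bp upstream to 200 bp downstream (x axis in bp, 0 at the start site; y axes differ between panels). NFY, SP/KLF, CREB and NRF1 strings gather upstream, ETS strings at the start site and YY1 strings just downstream. TATA strings reach 0.920 between 40 and 20 bp upstream and up to 0.851 in bins farther upstream (median position -182).

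Genes with a member differed from the other CpG-rich single-gene genes in the 200 bp upstream of the 5'-most start site. CCAATCA was there in 10.5% of 5745 genes with a member, against 4.21% of 3230 without, a difference of 6.32 points (5.25 to 7.36). CCGGAAGT was in 5.81% against 1.61% (4.204 points, 3.44 to 4.94), TGACGTCA in 3.43% against 1.52% (1.91, 1.26 to 2.53) and CGCATGCG in 3.53% against 1.73% (1.80, 1.12 to 2.45). The GC box was at like shares, with 31.9% against 32.3% (difference -0.399, interval -2.42 to 1.60). Genes with a member had a median GC content of 60.6% and a median CpG ratio of 0.790, against 63.1% and 0.741 without one. The part of base composition in the differences given here was not tested. AGGGGGCGC, the CTCF string, and TGANTCA were less frequent in genes with a member, at 2.16% against 3.37% (-1.22, -1.98 to -0.515) and 2.07% against 2.85% (-0.777, -1.49 to -0.120). GAGGAAGT and TGTGGTT were more frequent in genes with a member, at 1.91% against 1.08% (0.831, 0.301 to 1.32) and 2.21% against 1.49% (0.725, 0.132 to 1.27). Further strings more frequent in genes with a member were CTCGCGAG (1.06 points, 0.598 to 1.49), TCACGTG (1.96, 1.09 to 2.78), AAGATGGCG (0.588, 0.272 to 0.885), ACTACAATT (0.551, 0.299 to 0.801) and TTTGGCGC (0.640, 0.320 to 0.943). Seen the other way, 386 of these genes had CCGGAAGT upstream and 86.5% of them had a member. GGGGCGGG was upstream of 2878 genes and 63.7% of them had a member, against 64.0% of all 8975 genes.

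Of the 3230 genes without a member, 384 had a pooled summit of another class within 1 kb of one of their start sites and 45 had only the edge of a region there, so 2801, or 31.2% of the 8975, had no pooled region within reach. Of those 2801 genes 811 (29.0%, interval 27.3 to 30.7) had a summit in the less strict list of at least 1 replicate. The share of the 8975 genes with a member by the same rule was 64.0% from the list of replicate 1 and 56.7% from that of replicate 2, and both lists gave one at 5005 genes.

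Among genes with a CpG-rich single-gene promoter, those of cytosolic ribosomes, the respiratory chain and the proteasome nearly all had a member. All counts by gene list here and below are over the genes of a list that have such a promoter: 64 of 83 cytosolic ribosomal protein genes, 40 of 83 respiratory chain and ATP synthase genes, 30 of 49 proteasome genes and 36 of 78 mitochondrial ribosomal protein genes do. Read against the 64.0% of all CpG-rich single-gene genes, 60 of 64 cytosolic ribosomal protein genes had a member (93.8%), with a median pooled value of 17.0, against 13.9 for all such genes. Rpl31 had 21.1 in replicate 1 and 22.5 in replicate 2, and Rpl11 had 19.97 and 23.6. Of the 4 others, 3 including Rpl23a had a pooled summit of another class nearby, and Rpl10l, a copy known for its role in the testis, had no region. Respiratory chain and ATP synthase genes had a member in 39 of 40 cases, with Cox7c, a subunit of cytochrome oxidase, highest (23.7 in replicate 1, 22.2 in replicate 2); the exception Ndufs7 had a summit of another class. In the proteasome 29 of 30 did, led by Psmd6 (21.6 in replicate 1, 23.2 in replicate 2), and Psmd1 had a summit of another class. Mitochondrial ribosomal proteins had 33 of 36. Both replicate lists held 24 of the 33 (72.7%), against 4953 of all 5745 genes with a member (86.2%). Genes with a member had a median GC content of 58.4% for cytosolic ribosomal proteins and 56.8% for the respiratory chain. It was 56.3% for the proteasome and 56.9% for mitochondrial ribosomal proteins, against 61.1% for all genes with a member. The part of GC content in these shares and values was not tested.

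The machinery of RNA synthesis and translation showed like shares. A CpG-rich single-gene promoter was present at 10 of 26 RNA polymerase subunit genes and at 12 of 20 nucleoporin genes, and each of these had a member. So did 41 of 44 spliceosome genes, 36 of 38 translation initiation factors, 20 of 22 aminoacyl-tRNA synthetases and 18 of 22 Mediator subunits. Prpf8, at the core of the spliceosome, had 23.7 in replicate 1 and 22.7 in replicate 2. Tars, the threonyl-tRNA synthetase, had 20.8 and 20.5, and Eif3h, a subunit of the initiation factor eIF3, had 21.4 and 20.1. No region lay within reach of Prpf39, Eif1b, Eif4enif1, Vars, Vars2, Med12l or Med25. Of vacuolar ATPase genes, which acidify compartments, 12 of 13 had a member, led by Atp6ap2 (21.7 in replicate 1, 18.2 in replicate 2), and Atp6v1c2 had no region. Autophagy genes had 16 of 18, ubiquitin E2 enzymes 23 of 27, and Rab GTPases, which direct vesicle traffic, 26 of 35, with Rab15 and Rab20 among 7 without any region. The Rab share was 74.3% (interval 57.9 to 85.8) and the Mediator share 81.8% (61.5 to 92.7). Both intervals held the 64.0% of all CpG-rich single-gene genes.

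Mitosis genes had the highest median signal value of the lists examined; blood neutrophils themselves do not divide. All 26 mitosis genes with a CpG-rich single-gene promoter had a member, against 64.0% of all genes with such a promoter. Their median pooled value was 19.0 (range 7.89 to 28.8). Both replicate lists held 25 of the 26, against 86.2% of all genes with a member. Besides Nuf2 and Tpx2, Spc25 of the same kinetochore complex as Nuf2 had 24.0 in replicate 1 and 22.3 in replicate 2. In DNA replication 25 of 26 genes had a member, with a median of 17.2: Gins4, of the replicative helicase, had 17.7 and 22.8 in replicates 1 and 2, and Pcna, the sliding clamp, had 18.6 and 19.0. Mcm2, the exception, had a summit of another class. The median GC content of the mitosis genes with a member was 55.7%, and that of the replication genes 56.2%, against 61.1% for all genes with a member. The part of GC content in their values was not tested.

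Chromatin modifiers had a member at 52 of 70 genes (74.3%, interval 63.0 to 83.1), with a median pooled value of 12.4 and a median GC content of 66.8%. That interval held the 64.0% of all CpG-rich single-gene genes. Chd8, a chromatin remodeler, led with 19.8 in replicate 1 and 20.8 in replicate 2. Of the 18 others 5 had a summit of another class, Brd2 among them, 2 had the edge of a region and 11, including Brd1, had none. Zinc finger genes named Zfp had a member at 134 of 182 (73.6%), with a median of 14.9; Zfp157 had 24.2 in replicate 1 and 21.2 in replicate 2, and Zfp105 and Zfp11 were among 40 with no region.

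Genes that respond early to stimuli combined a very high share with low signal values. Of the 38 with a CpG-rich single-gene promoter, among them dual-specificity phosphatases and NF-kappaB feedback genes, 37 had a member (97.4%, interval 86.5 to 99.5). The share over all genes with such a promoter was 64.0%. Both replicate lists held 35 of the 37, against 86.2% of all genes with a member. The median pooled value of the 37 genes was 8.81 (range 3.75 to 16.7), against 13.9 for all genes with a member. Their median GC content was 62.5% against 61.1%. The highest were Dusp5, a phosphatase of ERK (14.5 in replicate 1, 17.9 in replicate 2), Ier5 (11.7 and 15.5) and Tnfaip3, the NF-kappaB inhibitor A20 (12.4 and 13.9). Their median summit position was 70 bp upstream and their median width 688 bp, against 44 bp and 610 bp for all genes with a member. Myc was the exception, with no region within reach.

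Transcription factors of the myeloid lineage had a member at 24 of 33 genes (72.7%, interval 55.8 to 84.9). That interval held the 64.0% of all CpG-rich single-gene genes. The median pooled value of these 24 genes was 9.50 (range 5.06 to 17.3). Both replicate lists held 17 of them (70.8%), against 86.2% of all genes with a member. Cebpg led with 14.7 in replicate 1 and 17.0 in replicate 2, followed by Irf2 (13.7 and 16.1) and Max, the partner of MYC (12.7 and 16.6). Etv6 was 1 of 6 with a summit of another class, and Fli1 was 1 of 3 with no region. Apoptosis and survival genes had 13 of 16 (81.25%, interval 57.0 to 93.4, which also held 64.0%) and a median of 9.19. Diablo, an inhibitor of caspase inhibitors, led (15.5 and 18.02), with Birc2 and the survival factor Bcl2l1 next, and Bik had no region. Few neutrophil granule and receptor genes have such a promoter: of 54 listed only 4 do, and 3 had a member. Arg2, an arginase, had 15.0 in replicate 1 and 15.5 in replicate 2, Cxcr4, the receptor that retains neutrophils in marrow, had 7.06 and 7.54, and Fcgr3, an Fc receptor, had 3.89 and 3.92 with its summit 631 bp downstream. Ctsd, a lysosomal protease, had a summit of another class.

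CpG-rich single-gene promoters of developmental regulators and neuronal genes were mostly without a region. Over all 8975 genes with such a promoter 64.0% had a member and 31.2% had no pooled region within reach. Of 39 HOX genes 27 have a CpG-rich single-gene promoter; 3 of these had a member, and the other 24 had no pooled region within reach. Hoxa7 had 8.98 in replicate 1 and 8.60 in replicate 2, and only the list of replicate 1 held the other 2. Among the 74 of 90 homeobox and T-box factors outside the HOX clusters with such a promoter, 72 had no region, Alx1 among them, and Pax5, the master regulator of B cells, was 1 of the 2 with a member (11.2 in replicate 1, 14.0 in replicate 2), its summit at position -612. Of 19 Wnt ligand genes 14 have such a promoter and none of the 14 had any region; a count of 0 of 14 gives an upper Wilson bound of 21.5%. Neuronal receptors and channels had a member at 8 of 82 genes, and ephrins and Eph receptors at 2 of 18, with Efnb1 highest (15.4 in replicate 1, 13.3 in replicate 2). By the same rule in the list of replicate 2 alone, 1 HOX, 1 homeobox or T-box and 1 ephrin or Eph receptor gene had a member; in that of replicate 1 alone, 1 homeobox or T-box gene did. SOX and FOX factors had 12 of 49, among them Foxk2 (11.5 and 15.2), Foxd2 (12.3 and 13.3) and Foxn3 (11.1 and 12.004), while Foxa1 and Foxa2 had none. The median GC content of the developmental factors was 61.8% and that of the HOX genes 59.4%, against 61.5% for all 8975 genes. It was 68.5% for Wnt ligands, 65.2% for SOX and FOX factors, 64.1% for neuronal genes and 62.5% for ephrins and Eph receptors. Median CpG ratios of these lists, in the same order, were 0.696, 0.752, 0.771, 0.801, 0.732 and 0.760, against 0.773 for all. Over all genes the share with a member was 51.1% at 70% GC and above. At CpG ratios of 0.6 to 0.7 it was 51.7%. The part of GC content and of the CpG ratio in these counts was not tested.

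**Figure D5:**
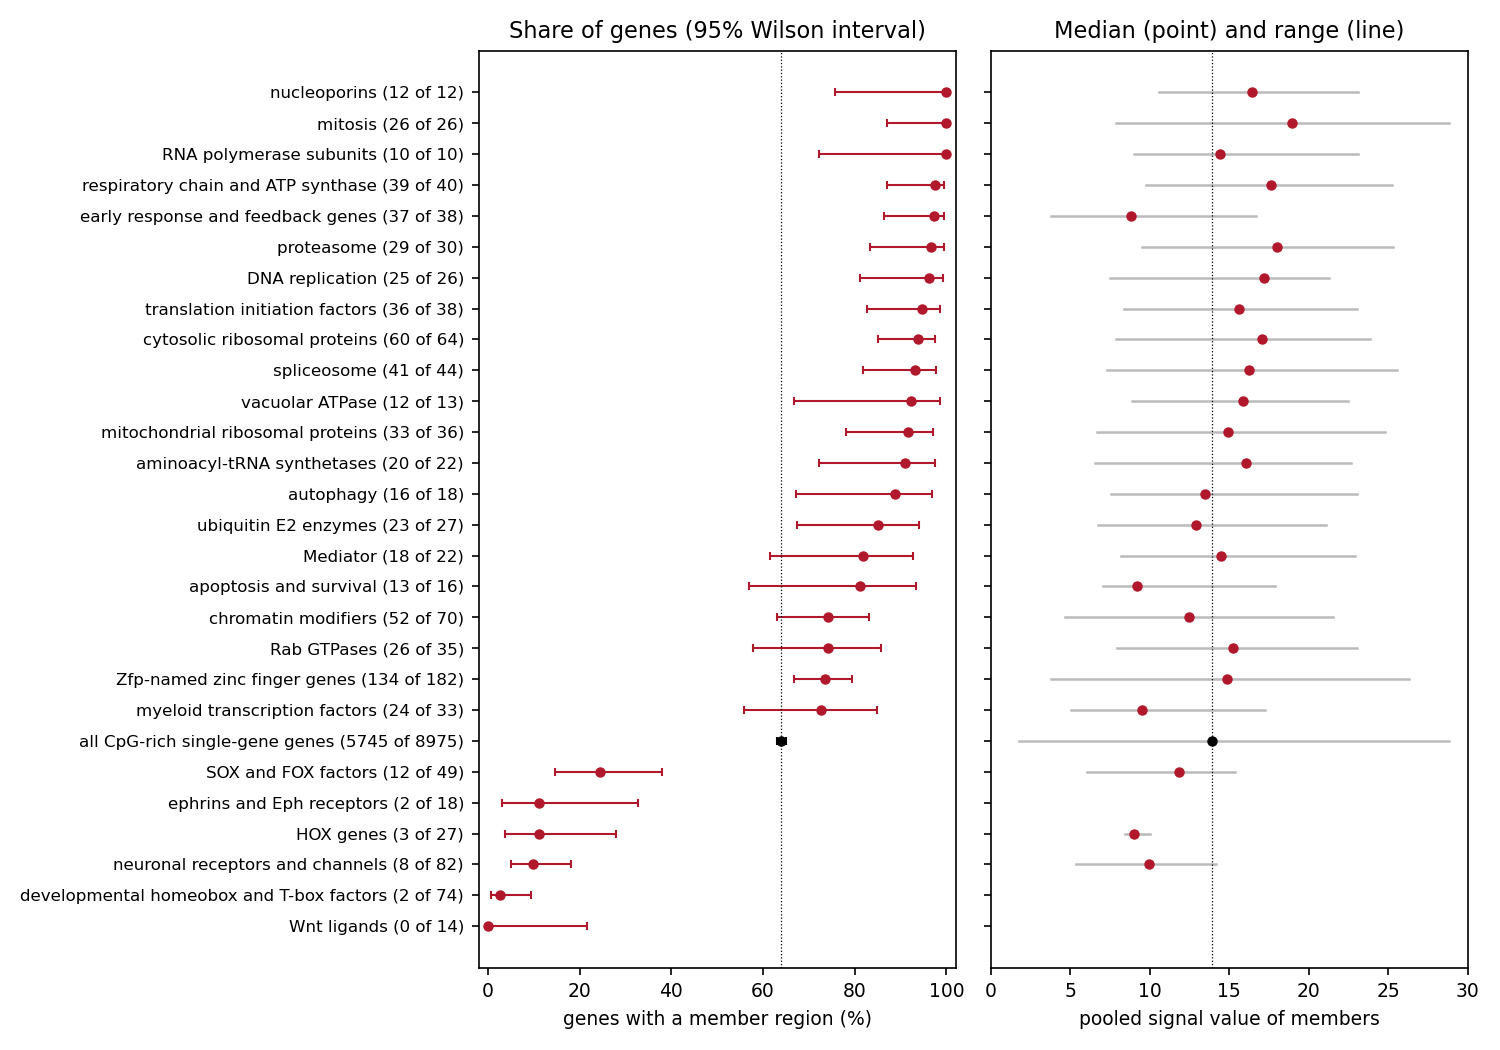
Left, percentage of CpG-rich single-gene genes with a member region, with 95% Wilson intervals, for gene lists of at least 10 such genes (counts in brackets) and for all such genes (black; dotted line at 64.0%). Right, median (point) and range (line) of the pooled signal value for lists with at least 3 members: early response and feedback genes combine 37 of 38 genes with a median of 8.81, and mitosis genes combine 26 of 26 with 19.0.

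Few genes that mark other blood cells have a CpG-rich single-gene promoter: 1 of 18 B cell, 8 of 21 T and NK cell, 7 of 17 monocyte and dendritic cell, 3 of 18 erythroid and platelet and 2 of 12 eosinophil, basophil and mast cell genes. The counts below stand beside 64.0% of all such genes. Of 8 T and NK cell marker genes with a CpG-rich single-gene promoter 1 had a member, which only the list of replicate 1 held, and 6, including Bcl11b and Eomes, had no region. Of 7 monocyte and dendritic cell genes 4 did: Tcf4, the regulator of plasmacytoid dendritic cells (11.8 in replicate 1, 16.6 in replicate 2), Maf (11.6 and 12.5), the cytokine receptor Flt3 (11.0 and 9.69) and 1 more. Batf3 had no region. Of 3 erythroid and platelet genes 2 did, including the integrin Itgb3 (8.21 and 8.47), and Gata2 and Kit, of the mast cell and basophil list, had none. Pax5 was the single B cell gene with such a promoter, and it had a member. From the list of replicate 2 alone, 0 of the 8 T and NK cell genes and 1 of the 3 erythroid and platelet genes had one.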

How the data were processed

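ATAC-seq peaks of 2 neutrophil libraries were analysed, 1 group with no comparison between groups of samples. Per the labels the assembly is mm10; for the aligner, peak caller and versions: not given in the sources used here. In the peak lists deposited by the authors each peak has a signal value, a score whose definition is not stated, and a −log10 p-value, which was read but supports no result. The pooled list was made by the authors from both replicates together, and each replicate also has an IDR-thresholded and a less strict (pseudoreplicated) list. Read depth is unknown from these files, and 0 columns of other samples were present.

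Overlapping peaks were merged (at least 1 bp), classified with GENCODE M21 start sites, and matched to each replicate list by at least 1 bp; a member took the highest signal value among the regions it overlapped there. Strings were fixed letters searched on both strands. Shares have 95% Wilson intervals and differences 95% Newcombe intervals, which cover counting error only; regions of the same libraries are not independent and no p-value was computed. Members, strings and gene lists were chosen with earlier results of these data known. Named genes were the 10 members with the highest mean replicate value, the 3 weakest, the 2 farthest on each side, and per list up to 3 highest members and 2 genes without a member in alphabetical order (a few are not reported here); the sequences for CCAATCA, TGACGTCA, CGCATGCG and CTCGCGAG, and the genes with several members, were chosen after their values were seen. Alternatives covered the pooled list, peak strength, distance, start sites, CpG limits, overlap and leaving out a replicate. The scripts were tested on simulated data and used Python 3.11.15, numpy 2.4.6, scipy 1.17.1 and matplotlib 3.10.9.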

Additional observations from a re-analysis of the deposited data

How the results depend on the processing

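With a CpG ratio of at least 0.75 and 55% GC there were 3762 members. The lists of single replicates gave 5431 to 6478 members. The median distance from summit to start site was 68 bp with a limit of 2.5 kb, 73 bp with the 5′-most start site of each gene and 71 bp with the stricter CpG limits, and 57 to 66 bp with a replicate left out. Of CpG-rich single-gene genes 52.2% had a member when only pooled peaks at or above the median signal value were used, and 56.7 to 64.0% did with a replicate left out; the median signal value was 14.9 with those stronger peaks and 11.8 to 13.6 in the lists of single replicates, which are scored separately. The other pooled IDR list gave 91.1%, 77.0% and 75.4% of members in replicate 1, replicate 2 and both. Stronger peaks gave 99.6%, 95.4% and 95.2%, an overlap covering 50% of the member gave 94.4%, 78.9% and 77.4%, and the less strict replicate lists gave 99.8%, 98.7% and 98.6%. For replicate 2 and for both, the shares were 85.4% and 84.3% within 500 bp, 80.5% and 79.5% within 2.5 kb, and 84.9% and 83.9% with the 5′-most start site. Members built from replicate 2 alone were in replicate 1 in 97.7% of cases, and those built from replicate 1 alone were in replicate 2 in 82.0%, so both held 82.0 to 97.7%; overlap with the list that members were built from was not computed. The cause of these shifts was not tested.

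Of 20 differences in string share between members and CpG-poor regions 13 had an interval that excluded 0; all 13 had the same sign in the 4 alternatives run for strings, and 9 of them excluded 0 in each. The shares themselves moved in 28 of 80 cases, including all 20 with 100 bp on either side of the summit. Gene list counts moved by over 1.5 times in 7 of 99 cases. No paired analysis was possible because the libraries form 1 group. Depth could not be read from peak lists, so a gene without a region is one where none was listed, and fewer open cells cannot be told apart from less open DNA per cell.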

Other observations

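Of the 5758 genes, 38 had 3 member regions and Cic had 4, the strongest at a pooled signal value of 9.83. Nfkbiz, an inducible regulator of NF-kappaB, reached 12.5, Socs1, an inhibitor of cytokine signalling, 9.94, Nr3c1, the glucocorticoid receptor, 10.7, Dusp2, a phosphatase of MAP kinases, 6.28, and Pfkfb3, a regulator of glycolysis, 11.8. These genes were chosen after their values were seen.

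The share of CpG-rich single-gene genes with a member ranged between autosomes from 59.1% of 384 on chromosome 15 (interval 54.1 to 63.9) to 70.8% of 288 on chromosome 16 (65.3 to 75.8). On the X chromosome it was 61.2% of 237 (54.8 to 67.2), and the single such gene on the Y chromosome had none.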
